A study of Mus musculus with 18 samples.

Results

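The comparison was between the gastrocnemius of 3 HSA-LR mice treated with Pip6a-PMO and that of 3 untreated HSA-LR mice, 6 of the 18 libraries of the series. The libraries were chosen by their labels, and no measured value entered the choice. All 6 mice were of the FVB strain, labelled male and aged 20 weeks, and by their labels they differed in agent alone. HSA-LR mice carry a human skeletal α-actin gene with an expanded CTG repeat in its 3' UTR, which is transcribed in skeletal muscle, so the model carries the repeat in muscle fibers and not in its natural *DMPK* context. The transcript of the human transgene was not analysed here. Pip6a-PMO is a morpholino oligomer with CAG repeats, joined to the cell-penetrating peptide Pip6a and injected intravenously. The labels give a volume of 160 µL per mouse for Pip6a-PMO or saline and call the control mice untreated. The gastrocnemius of 3 untreated FVB WT mice, also aged 20 weeks, gave reference levels and shared in the estimate of the spread.

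In myotonic dystrophy type 1 (DM1), CUG repeats in a mutant transcript bind MBNL1, a regulator of alternative splicing, and hold it in nuclear foci. Muscle then makes splice forms that are usual before birth, among them a *Clcn1* form that yields no functional chloride channel and leads to myotonia. A CAG oligomer pairs with the repeats without calling on RNase H, and it can free MBNL1. Transcript levels also change in this model, and the functions of the genes that moved after treatment are described here.

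Each library held 109483236 to 133700087 counts on exon bins, the stretches between the ends of annotated exons. The summed counts of the bins of a gene were compared by edgeR's quasi-likelihood test, and a gene was called at a Benjamini-Hochberg adjusted P under 0.1. Levels are given as CPM, counts scaled to a common library total after TMM, and changes as log2 fold changes (log2 FC) of treated minus untreated mice with their SE. Treated mouse 3 stood apart in coverage. The ratio of counts per base in the first of 3 equal parts of the bins of a gene to that in the last (median over genes) was 0.643, 0.632 and 0.640 in untreated mice 1, 2 and 3, and 0.610, 0.645 and 0.472 in treated mice 1, 2 and 3. The difference of the means of the ratio had P = 0.4 (two-sided exact permutation test, where 0.1 is the smallest P that 3 mice against 3 allow). Results that rest on treated mouse 3 are given below with and without it. The Y-linked genes *Eif2s3y*, *Uty*, *Ddx3y* and *Kdm5d* together held 133 to 171 CPM in the 6 HSA-LR libraries. WT mouse 2, labelled female, held 153 CPM and WT mouse 3, labelled male, held 1.13 CPM, so these labels went against the data. Without WT mouse 2 the test called 1092 genes and without WT mouse 3 it called 1877.

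Of 15625 genes tested, 1566 were called (10%). Of these, 702 were higher in treated mice (4.49% of the genes tested) and 864 were lower (5.53%). Changes of at least 2-fold were seen in 401 genes (2.57%) and were mostly decreases, with 323 genes lower (2.07%) and 78 higher (0.499%). In all 323 and in 74 of the 78 the treated libraries did not overlap the untreated libraries, which the choice by P and fold change on the same libraries favors. Over all genes tested such separation was seen upward in 13.9% and downward in 15.5%. In bulk muscle, fewer cells of a type and less RNA per cell cannot be told apart. Defining genes of skeletal muscle were abundant in each library, with a summed level of 196599, 207649 and 209454 CPM for 10 such genes in untreated mice and 216897, 268550.0 and 304874 CPM in treated mice.

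Leading genes were taken only from those whose treated and untreated libraries did not overlap. In untreated mice, each of the 12 genes with the leading decreases was also called higher than in WT mice, a comparison that shares the untreated libraries. *Camk1d*, a kinase activated by calcium and calmodulin (chr2:5293457-5714515), measured 20.6, 17.9 and 17.7 CPM in untreated mice and 3.65, 3.79 and 3.27 CPM in treated mice (log2 FC -2.39 ± 0.16 (SE), adjusted P = 0.000434). WT mice stood at 3.26, 2.82 and 2.08 CPM. The groups of HSA-LR mice did not overlap, and the treated libraries lay just above those of WT mice. *Dtl*, the substrate receptor of a ubiquitin ligase that acts in DNA replication (chr1:191537356-191575544), went from 2.30, 1.83 and 2.01 CPM to 0.264, 0.192 and 0.245 CPM (log2 FC -3.13 ± 0.22 (SE), adjusted P = 0.000434). All 3 treated mice were far below the untreated mice and above the 0.090, 0.136 and 0.124 CPM of WT mice.

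Cell junction and membrane genes were among the leading decreases. *Cxadr*, the coxsackievirus and adenovirus receptor, which sits in cell junctions, measured 2.34, 3.38 and 2.37 CPM in untreated and 0.317, 0.288 and 0.429 CPM in treated mice (log2 FC -2.97 ± 0.24 (SE), adjusted P = 0.000847). Its treated libraries overlapped the 0.237, 0.293 and 0.310 CPM of WT mice. *Ctnna3*, which encodes α-T-catenin of adherens junctions, went from 15.6, 15.9 and 17.6 CPM to 6.56, 6.45 and 6.27 CPM (log2 FC -1.35 ± 0.10 (SE), adjusted P = 0.000434), with WT mice at 4.52, 4.12 and 3.90 CPM. Here the treated libraries stayed between the 2 other groups. *Rab7b*, a small GTPase of endosome transport, fell from 8.32, 5.71 and 5.56 CPM to 1.67, 1.53 and 1.10 CPM (log2 FC -2.18 ± 0.21 (SE), adjusted P = 0.00165). *Fam171b*, a membrane protein gene, fell from 4.28, 2.68 and 4.0 CPM to 0.777, 0.551 and 0.592 CPM (log2 FC -2.51 ± 0.25 (SE), adjusted P = 0.00165).

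*Cited1*, a coregulator of transcription, had the largest change of the 12 leading decreases, from 3.25, 5.02 and 4.44 CPM in untreated to 0.370, 0.264 and 0.347 CPM in treated mice (log2 FC -3.69 ± 0.32 (SE), adjusted P = 0.00104). *Uchl1*, a ubiquitin hydrolase known from neurons, measured 49.2, 39.98 and 40.5 CPM and 14.3, 12 and 15.9 CPM (log2 FC -1.62 ± 0.13 (SE), adjusted P = 0.000969). WT mice had 5.83, 6.37 and 7.15 CPM of *Uchl1*, below every treated library. *Tgfb3*, a ligand of the TGF-β family, measured 71.3, 68.3 and 60.3 CPM and 28.8, 25 and 31.1 CPM (log2 FC -1.23 ± 0.10 (SE), adjusted P = 0.000969), and its treated libraries overlapped the 28.5, 29.7 and 31.9 CPM of WT mice. *Eda2r*, a receptor of the TNF receptor family and a target of p53, measured 84.3, 67.5 and 88.5 CPM and 17.8, 25.7 and 20.4 CPM (log2 FC -1.91 ± 0.18 (SE), adjusted P = 0.00126). *Prepl*, a serine hydrolase, measured 71, 77.4 and 71.8 CPM and 27.3, 20.2 and 17 CPM (log2 FC -1.77 ± 0.16 (SE), adjusted P = 0.00121), and *Ttc7* measured 36.1, 36.1 and 34.3 CPM and 16.6, 13 and 13.6 CPM (log2 FC -1.30 ± 0.10 (SE), adjusted P = 0.00079). WT mice had 15.6, 17.3 and 18 CPM of *Prepl*, which the treated libraries overlapped, and 11.7, 10.9 and 10.9 CPM of *Ttc7*, below every treated library.

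The leading increases differed in where WT mice stood. For 10 of the 12, untreated HSA-LR mice were called lower than WT mice, and all 3 treated libraries lay above the untreated libraries. *Cebpd*, a transcription factor of the C/EBP family, measured 4.78, 4.51 and 5.33 CPM in untreated and 13.4, 10.5 and 12 CPM in treated mice (log2 FC 1.29 ± 0.12 (SE), adjusted P = 0.00126), with WT mice at 12.3, 11 and 11.5 CPM. *Arntl2*, a partner of the clock factor CLOCK, measured 0.0760, 0.0530 and 0.10 CPM and 0.415, 0.887 and 0.551 CPM (log2 FC 3.01 ± 0.36 (SE), adjusted P = 0.00346), still below the 1.12, 1.09 and 1.30 CPM of WT mice. *Enho*, which encodes the secreted peptide adropin, measured 2.48, 2.49 and 2.07 CPM and 6.29, 5.51 and 6.75 CPM (log2 FC 1.40 ± 0.15 (SE), adjusted P = 0.00209), with WT mice at 11.9, 9.09 and 12.1 CPM. *Igfbp5*, a binding protein of insulin-like growth factors, measured 174, 214 and 154 CPM and 347, 457 and 415 CPM (log2 FC 1.17 ± 0.14 (SE), adjusted P = 0.00346), with WT mice at 664, 594 and 653 CPM. In these last 2 genes every treated library lay between the untreated and the WT libraries.

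*Cdnf*, a neurotrophic factor of the endoplasmic reticulum, measured 10.9, 6.90 and 10.6 CPM in untreated and 29.4, 32 and 22.1 CPM in treated mice (log2 FC 1.56 ± 0.19 (SE), adjusted P = 0.00346). *Acot7*, an acyl-CoA thioesterase, measured 9.43, 7.13 and 8.59 CPM and 18.9, 18.8 and 16.4 CPM (log2 FC 1.10 ± 0.12 (SE), adjusted P = 0.00209). *Vamp1*, a SNARE protein of vesicle fusion, measured 10.8, 9.56 and 8.95 CPM and 19.5, 23.9 and 20.9 CPM (log2 FC 1.13 ± 0.14 (SE), adjusted P = 0.00346). None of these 3 genes overlapped between treated and untreated mice. The thrombin receptor gene *F2rl3* had a log2 FC of 1.94 ± 0.25 (adjusted P = 0.00382) and *Tnfrsf4*, which encodes OX40, one of 1.55 ± 0.21 (adjusted P = 0.00507), both at under 4 CPM. *Ndrg3* measured 37.4, 36.3 and 39.1 CPM and 77.8, 89.3 and 67.5 CPM (log2 FC 1.06 ± 0.12 (SE), adjusted P = 0.00255), above the 53.7, 51.7 and 62.7 CPM of WT mice in every treated library.

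In the other 2 genes the treated mice stood apart from both groups. *Txlnb*, a taxilin gene known from striated muscle (chr10:17796226-17845665), measured 344, 339 and 334 CPM in untreated, 389.9, 419 and 405 CPM in WT and 1837, 2086 and 1608 CPM in treated mice (log2 FC 2.44 ± 0.11 (SE), adjusted P = 2.86e-05). *Tmem236*, which encodes a membrane protein (chr2:14174523-14221993), measured 0.129, 0.151 and 0.167 CPM in untreated, 0.139, 0.157 and 0.268 CPM in WT and 1.30, 1.73 and 1.27 CPM in treated mice (log2 FC 3.26 ± 0.29 (SE), adjusted P = 0.00126). For both, every treated library lay above all 6 others. Untreated against WT mice, neither gene was called (adjusted P = 0.17 for *Txlnb* and 0.539 for *Tmem236*). That comparison shares the untreated libraries with the one described here.

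**Figure D1:**
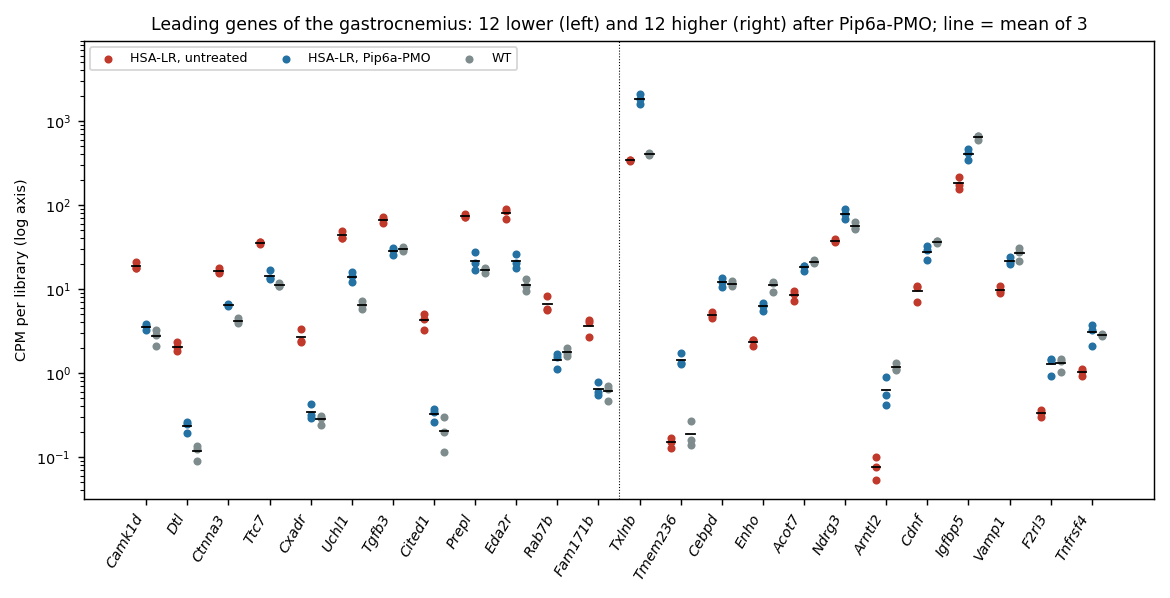
CPM of each gastrocnemius library (log axis) for the 12 decreases of at least 2-fold with the lowest P (left of the dotted line) and the 12 such increases (right), with 3 mice a group and a line at each mean. Treated and untreated points do not overlap in any of the 24 genes, which the rule for choosing them required. *Txlnb* and *Tmem236* are the genes in which treated points lie far above both other groups.

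*Txlnb* is also a gene with a CTG run, a stretch to which a CAG oligomer could in principle pair. Runs of at least 7 CTG were searched on the sense strand of GENCODE M21 transcripts (GRCm38), and 50 genes tested held one. Of these, 5 were called (10%, the share called among all genes tested), 3 higher and 2 lower, with a median log2 FC of -0.06 over the 50. In the quadriceps libraries of the series, 10 of the 50 were called between treated and untreated mice, against 13.8% of all genes tested there. UTR runs of exactly 9 CTG in 4 genes are shown because they have the same length but not the same outcome. Capitals mark the run, and the strand is that of the transcript.
*Txlnb*, 5' UTR, chr10:17796330-17796356, plus strand: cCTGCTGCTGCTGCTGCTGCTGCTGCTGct
*Kcna6*, 5' UTR, chr6:126740589-126740615, minus strand: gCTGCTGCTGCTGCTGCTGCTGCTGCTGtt
*Abr*, 5' UTR, chr11:76494456-76494482, minus strand: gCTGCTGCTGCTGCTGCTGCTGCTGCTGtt
*Itgav*, 3' UTR, chr2:83804153-83804179, plus strand: gCTGCTGCTGCTGCTGCTGCTGCTGCTGac

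Against the log2 FC of 2.44 of *Txlnb*, the fits gave 0.67 for the potassium channel gene *Kcna6* (adjusted P = 0.157), 0.39 for *Abr* (adjusted P = 0.634) and -0.51 for the integrin gene *Itgav* (adjusted P = 0.059). The called genes *Fbxo31* and *Aasdh*, with runs of 8 and 18 CTG in noncoding transcripts, had log2 FC of 0.34 and 0.39. *Armcx6*, with 12 CTG in its 3' UTR, had a log2 FC of -0.67. Of the 5 called genes with a run, *Txlnb* was the single one changed at least 2-fold. Introns were not searched.

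Gene groups of muscle physiology were read from lists, each beside the background of 4.49% of genes called higher and 5.53% called lower and a median log2 FC of -0.0043 over all genes tested. Genes of calcium handling were called in both directions. Of 35 genes tested, 5 were called higher and 4 lower (median log2 FC 0.14). Besides *Camk1d*, the decreases included *Sln*, which encodes the SERCA inhibitor sarcolipin, at 75.4, 94.7 and 62.8 CPM in untreated and 8.56, 5.55 and 5.50 CPM in treated mice (log2 FC -3.57 ± 0.45 (SE), adjusted P = 0.00382). The kinase gene *Camk2d* went from 153, 128 and 137 CPM to 75.5, 72.7 and 59.2 CPM (log2 FC -1.01 ± 0.12 (SE), adjusted P = 0.00346). *Jph2*, which encodes the triad protein junctophilin 2, led the increases with 425, 390.4 and 363 CPM and 528, 646 and 742 CPM (log2 FC 0.70 ± 0.13 (SE), adjusted P = 0.0171). Without treated mouse 3, 1 member was called higher and 6 were called lower, and the same counts came with the coverage ratio as a covariate.

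Contractile genes of fast fibers counted 5 members called higher and 1 lower of 17 (median log2 FC 0.42). The lower one was *Myh1*, the myosin heavy chain of IIX fibers, at 19162, 13312 and 17921 CPM in untreated and 4041, 3182 and 2426 CPM in treated mice (log2 FC -2.38 ± 0.36 (SE), adjusted P = 0.00871), with WT mice at 2344, 3922 and 6633 CPM. *Myh4*, the IIB heavy chain, measured 29002, 41902 and 39315 CPM and 47713, 65939.5 and 75096 CPM (log2 FC 0.78 ± 0.24 (SE), adjusted P = 0.0949). The troponin genes *Tnni2* and *Tnnt3* had log2 FC of 0.70 and 0.68 (adjusted P = 0.0578 and 0.073). All 5 increases were lost without treated mouse 3, without treated mouse 2 and with the coverage covariate, where edgeR called 0 members higher, and the call of *Myh1* was kept. The median log2 FC of the list was 0.33, 0.42 and 0.34 in these settings, and the bins nearer the 3' end gave 4 called higher with a median of 0.48. Without treated mouse 3, 7 of the 17 members were at an unadjusted P under 0.05. DESeq2 on all 9 libraries called 9 members, and without treated mouse 1 edgeR called 9 higher. Treated mouse 3 had the highest level of *Myh4*, *Tnni2* and *Tnnt3* of the 6 mice. The part of its low 5' coverage in these levels was not tested.

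Of 12 slow fiber genes edgeR called 0, DESeq2 called 1 and 2 were at an unadjusted P under 0.05, while 11 had a positive log2 FC (median 1.14, range -0.91 to 1.40). The sum of the list was 5003, 2314 and 4245 CPM in untreated mice and 17354, 3833 and 3162 CPM in treated mice. A single library, that of treated mouse 1, stood far above the others, and the median log2 FC was -0.08 without it. Without treated mouse 3, edgeR called 1 member higher, and 9 of the 12 were at an unadjusted P under 0.05. The median log2 FC of that fit, which keeps treated mouse 1, was 1.51. *Myh7*, the slow myosin heavy chain, measured 896, 383 and 709 CPM in untreated and 3087, 747 and 593 CPM in treated mice. *Mb*, the myoglobin gene, was called lower at 4643, 3929 and 4173 CPM and 2852, 1509 and 1530.0 CPM (log2 FC -1.11 ± 0.35 (SE), adjusted P = 0.0991), a call lost without treated mouse 2 or 3.

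Among 28 sarcolemmal channels and pumps, 2 were called higher and 3 lower (median log2 FC -0.08). *Clcn1*, the chloride channel behind myotonia, measured 213, 190.5 and 175 CPM in untreated, 292, 347 and 273 CPM in treated and 355, 355 and 267 CPM in WT mice (log2 FC 0.66 ± 0.14 (SE), adjusted P = 0.0308). *Kcnn3*, which encodes the SK3 potassium channel known from denervated and myotonic muscle, measured 8.16, 7.35 and 8.74 CPM and 3.43, 3.04 and 2.75 CPM (log2 FC -1.39 ± 0.33 (SE), adjusted P = 0.0448), and *Kcnq5* 24.8, 27.1 and 29.7 CPM and 18.6, 18.2 and 16.7 CPM (log2 FC -0.61 ± 0.09 (SE), adjusted P = 0.00831). The call of *Kcnn3* was lost without treated mouse 2 or 3, whereas that of *Kcnq5* was kept. The call of *Clcn1* was lost without untreated mouse 2 (log2 FC 0.65) or 3 (log2 FC 0.59), and the list had 4 genes called higher and 2 lower without treated mouse 3. Of 26 genes of the acetylcholine receptor and of denervation, 0 were called higher and 4 lower (median log2 FC -0.12). They included *Runx1*, a transcription factor induced by denervation, at 5.98, 4.75 and 7.33 CPM and 2.93, 3.05 and 2.55 CPM (log2 FC -1.08 ± 0.18 (SE), adjusted P = 0.0125). The receptor subunit gene *Chrnb1* measured 49.8, 47.5 and 62.8 CPM and 34.4, 33.2 and 29.5 CPM (log2 FC -0.72 ± 0.14 (SE), adjusted P = 0.0226), below the 50.1, 40.9 and 55.7 CPM of WT mice. This list had 2 genes called lower without untreated mouse 1 and 3 without treated mouse 3, where its median log2 FC was -0.03.

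Genes of the matrix and of the membrane skeleton were called in 1 direction, lower in treated mice. Of 47 collagen and matrix genes, 10 were called lower and 0 higher, and 9 had a positive sign (median log2 FC -0.30). *Adamts20*, a matrix protease, measured 7.62, 6.79 and 9.12 CPM in untreated and 1.99, 2.11 and 1.23 CPM in treated mice (log2 FC -2.14 ± 0.28 (SE), adjusted P = 0.00404). *Col6a3*, a chain of collagen VI, measured 72.2, 69.1 and 68.7 CPM and 54.6, 51.9 and 45.5 CPM (log2 FC -0.47 ± 0.09 (SE), adjusted P = 0.0264). *Lama2*, the laminin chain of the muscle basement membrane, measured 81.4, 77.7 and 82.9 CPM and 58.9, 58.2 and 58.9 CPM (log2 FC -0.46 ± 0.07 (SE), adjusted P = 0.00985), with WT mice at 56.4, 51.1 and 51.1 CPM. Leaving out treated mouse 3 gave 8 called lower, leaving out treated mouse 2 gave 6, and the largest bin of each gene gave 5 lower and 1 higher.

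In the dystrophin complex, which ties the fiber skeleton to the matrix, 6 of 24 genes were called lower and 0 higher (median log2 FC -0.21). *Sntb1*, which encodes β1-syntrophin, went from 19.8, 23.3 and 26.3 CPM to 5.78, 4.95 and 2.63 CPM (log2 FC -2.37 ± 0.28 (SE), adjusted P = 0.00346), with WT mice at 2.38, 2.52 and 3.70 CPM. *Itgb1*, the β1 integrin chain, measured 322, 279.8 and 338 CPM and 212, 214 and 191 CPM (log2 FC -0.61 ± 0.11 (SE), adjusted P = 0.0188). Dystrophin itself was not called, with *Dmd* at 90.7, 93.8 and 105 CPM and 78.8, 81.8 and 53 CPM (log2 FC -0.44, adjusted P = 0.126). Without treated mouse 3, 5 members were called lower. Of 14 tendon and fibro-adipogenic markers, 2 were called lower and 1 higher, among them *Thbs4* at 208, 214 and 174 CPM and 99.8, 96.9 and 59.9 CPM (log2 FC -1.22 ± 0.25 (SE), adjusted P = 0.0261).

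In glycolysis and glycogen turnover, 5 of 28 genes were called higher and 1 lower (median log2 FC 0.17). *Ppp1r3c*, a subunit that brings protein phosphatase to glycogen, measured 146, 241 and 174 CPM in untreated and 654, 664 and 286 CPM in treated mice (log2 FC 1.52 ± 0.35 (SE), adjusted P = 0.0404). The muscle glycogen phosphorylase gene *Pygm* had a log2 FC of 0.57 ± 0.15 (adjusted P = 0.0576) and the phosphofructokinase gene *Pfkm* one of 0.46 ± 0.12 (adjusted P = 0.058). *Fbp2*, the muscle fructose bisphosphatase, ran the other way, from 52.1, 71.1 and 67.8 CPM to 19.9, 29.9 and 26.3 CPM (log2 FC -1.33 ± 0.16 (SE), adjusted P = 0.00346). With the coverage ratio as a covariate, 1 gene of the list was called higher, without treated mouse 3 there were 4, and without treated mouse 2 edgeR called 0 higher, the calls of *Ppp1r3c*, *Pygm* and *Pfkm* being lost.

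Among 21 genes of AMPK and mitochondrial biogenesis, 4 were called higher and 1 lower (median log2 FC 0.19). The AMPK subunit gene *Prkab2* measured 168, 175 and 181 CPM and 261, 377 and 322 CPM (log2 FC 0.87 ± 0.15 (SE), adjusted P = 0.0137), while the coactivator gene *Ppargc1b* measured 9.71, 8.52 and 7.38 CPM and 2.75, 3.28 and 3.98 CPM (log2 FC -1.36 ± 0.26 (SE), adjusted P = 0.0227). Fatty acid oxidation had 1 of 33 genes called, *Mlycd* (log2 FC 0.42, a call lost without treated mouse 1 or 2), with 31 positive signs. Its median log2 FC was 0.27, or 0.07 without treated mouse 1, and without treated mouse 3 it had 3 genes called higher and 1 lower. Oxidative phosphorylation had 2 of 75 called, both higher, led by *Cox8b* (log2 FC 0.49). Of 16 genes of polyamine and creatine metabolism, 3 were called higher and 1 lower. *Smox*, which encodes spermine oxidase, measured 65.6, 103 and 89.2 CPM and 268, 362 and 233 CPM (log2 FC 1.75 ± 0.42 (SE), adjusted P = 0.0475, a call lost without treated mouse 2), and *Azin1*, an inhibitor of antizyme, 117, 96.8 and 87.2 CPM and 61, 54.9 and 51.7 CPM (log2 FC -0.84 ± 0.11 (SE), adjusted P = 0.00507). Of 19 genes of cholesterol and fatty acid synthesis, 0 were called higher and 3 lower, among them the cholesterol synthesis gene *Hmgcs1* (log2 FC -0.23 ± 0.07, adjusted P = 0.0892, a call lost without treated mouse 1 or 2 and without any untreated mouse).

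Growth signaling changed in single genes. Of 46 genes of insulin, IGF and myostatin signaling, 3 were called higher and 4 lower (median log2 FC -0.08). *Tbc1d1*, a regulator of glucose transporter traffic, measured 153, 145 and 282 CPM in untreated, 71.1, 76.2 and 40.8 CPM in treated and 45.5, 46.8 and 50.1 CPM in WT mice (log2 FC -1.62 ± 0.29 (SE), adjusted P = 0.0163). The kinase gene *Akt2* was called higher (log2 FC 0.41 ± 0.08 (SE), adjusted P = 0.0258). The insulin receptor gene *Insr* was not called (log2 FC -0.36, adjusted P = 0.116).

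Of 40 autophagy and lysosome genes, 6 were called higher and 0 lower (median log2 FC 0.06), and without treated mouse 3 there were 6 higher and 1 lower. *Psap*, which encodes the lysosomal prosaposin, measured 594, 615 and 599.8 CPM in untreated and 783, 846 and 801 CPM in treated mice (log2 FC 0.43 ± 0.08 (SE), adjusted P = 0.0238). *Map1lc3b*, the LC3B protein of autophagosomes, measured 105, 104 and 108 CPM and 127, 136 and 149 CPM (log2 FC 0.38 ± 0.08 (SE), adjusted P = 0.0273). In 26 heat shock and oxidative stress genes 5 were called higher and 0 lower. The 5 were the antioxidant and detoxification genes *Gstm1*, *Nqo1*, *Gsr* and *Prdx1* and the chaperone gene *Hsp90aa1*. The lowest P was that of the glutathione transferase gene *Gstm1* (log2 FC 0.60 ± 0.11, adjusted P = 0.0188). In 32 genes of ER stress and the integrated stress response 6 were called higher and 2 lower. *Cebpb* measured 5.88, 6.35 and 5.49 CPM and 12.4, 11.2 and 11.6 CPM (log2 FC 0.99 ± 0.15 (SE), adjusted P = 0.00985), while *Atf3*, an early stress factor, measured 101, 70.9 and 62.5 CPM and 28.3, 13 and 15 CPM (log2 FC -2.06 ± 0.39 (SE), adjusted P = 0.0208).

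*Atf3* was also 1 of 3 immediate early genes called lower of 27 tested, where 1 was called higher (median log2 FC -0.55). *Egr3* and *Fosb* had log2 FC of -3.06 and -2.35 (adjusted P = 0.0521 and 0.0841), and both calls were lost without treated mouse 3, where edgeR called 1 member lower. *Egr3* was low and uneven, at 1.44, 0.515 and 0.167 CPM in untreated and 0.128, 0.040 and 0.082 CPM in treated mice. *Fosb* measured 6.50, 4.61 and 1.78 CPM in untreated and 0.468, 1.53 and 0.521 CPM in treated mice. WT mice had 5.68, 3.70 and 15.5 CPM of *Fosb*, above every treated library. Of 21 p53 targets, 3 were called lower, *Eda2r*, *Phlda3* and *Cdkn1a*, and 1 higher, *Polk*. The call of *Cdkn1a* was lost with any single HSA-LR mouse left out. *Phlda3*, an inhibitor of AKT, measured 56.7, 53.8 and 69.5 CPM and 30.4, 36.5 and 35.6 CPM (log2 FC -0.81 ± 0.14 (SE), adjusted P = 0.0153). The ligase list had 3 genes called higher and 1 lower, again *Cdkn1a*, of 28, with *Fbxo31* at 117, 112 and 128 CPM and 151, 153 and 147 CPM (log2 FC 0.34 ± 0.08 (SE), adjusted P = 0.0349). The proteasome had 2 of 34 genes called higher (32 positive signs), against 0 by edgeR without treated mouse 3, where 5 were at an unadjusted P under 0.05. DESeq2 called 7 on all libraries.

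In 5 further lists edgeR called 0 members. Of 19 splicing regulators of muscle, 4 were at an unadjusted P under 0.05, DESeq2 called 4 and the largest bin of each gene gave 3 called higher. Of 40 interferon and nucleic acid sensing genes, 5 were at an unadjusted P under 0.05 and DESeq2 called 3. Of 52 cytosolic ribosomal proteins, 1 was at an unadjusted P under 0.05 and DESeq2 called 0. Without treated mouse 3, edgeR called 6 ribosomal genes and 2 interferon genes lower and 1 splicing regulator higher. Of 9 Schwann and nerve markers 1 was at an unadjusted P under 0.05, and of 8 erythroid markers 3 were, with 0 of either called by DESeq2.

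Markers of other cell types were read from lists as well. Of 26 leukocyte markers 3 were called lower and 0 higher, while 15 had a positive sign, the median log2 FC was 0.04 and the largest bin of each gene gave 0 calls with edgeR (2 members at an unadjusted P under 0.05). The 3 were the macrophage genes *Csf1r* (26, 25.3 and 23.1 CPM and 14.3, 11.8 and 15.6 CPM, log2 FC -0.84 ± 0.14 (SE), adjusted P = 0.0131), *Mrc1* (log2 FC -0.70, adjusted P = 0.0344) and *Adgre1* (log2 FC -0.79, adjusted P = 0.0327). The summed level of the leukocyte list was 103, 127 and 123 CPM in untreated and 96.9, 80.5 and 131 CPM in treated mice. The sums overlapped through treated mouse 3 alone, as treated mice 1 and 2 lay below every untreated mouse. Without treated mouse 3 the median log2 FC was -0.22, with 3 members called lower. The coverage covariate gave a median of -0.33, with 5 called lower. Of 16 endothelial and pericyte markers 1 was called, *Cspg4* of pericytes (log2 FC -1.12, adjusted P = 0.0283), with 7 positive signs and a median log2 FC of -0.01. Of 32 satellite cell and proliferation genes 1 was called higher and 3 lower, among them *Heyl* (log2 FC -0.79, adjusted P = 0.0372, a call lost without treated mouse 2). Of 27 complement, chemokine and acute phase genes 17 had a positive sign and 1 was called, *Tnfrsf12a*, the TWEAK receptor, at 47.4, 32.2 and 37.6 CPM and 14.4, 6.03 and 5.91 CPM (log2 FC -2.15 ± 0.44 (SE), adjusted P = 0.027). Of 30 chromatin modifiers, 2 were called lower, *Tet2* (log2 FC -1.06, adjusted P = 0.00558) and *Tet3* (log2 FC -0.49, adjusted P = 0.0614, a call lost without treated mouse 1 or 3). Erythroid markers summed to 501, 663 and 672 CPM in untreated and 1078, 899 and 3129 CPM in treated mice, and their median log2 FC was 1.43, or 0.68 without treated mouse 3. Adipocyte markers summed to 2913, 3087 and 3133 CPM in untreated and 2282, 1553 and 2431 CPM in treated mice, with 17 of 18 positive signs and a median log2 FC of 0.69, or -0.02 without treated mouse 3. The 1 member called, *Car3*, was lower (2462, 2377 and 2489.5 CPM in untreated and 1632, 884 and 1049 CPM in treated mice, log2 FC -1.04 ± 0.22 (SE), adjusted P = 0.0282) and carried most of the sum. The cell type behind the *Car3* counts was not tested, so its fall is not read as a fall of fat cells. The other 17 markers summed to 451, 709.7 and 644 CPM in untreated and 650.4, 669 and 1382 CPM in treated mice. The erythroid sum and the adipocyte sum without *Car3* set treated mouse 3 above the other 5 HSA-LR mice, and their part in the calls lost without that mouse was not tested.

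**Figure D2:**
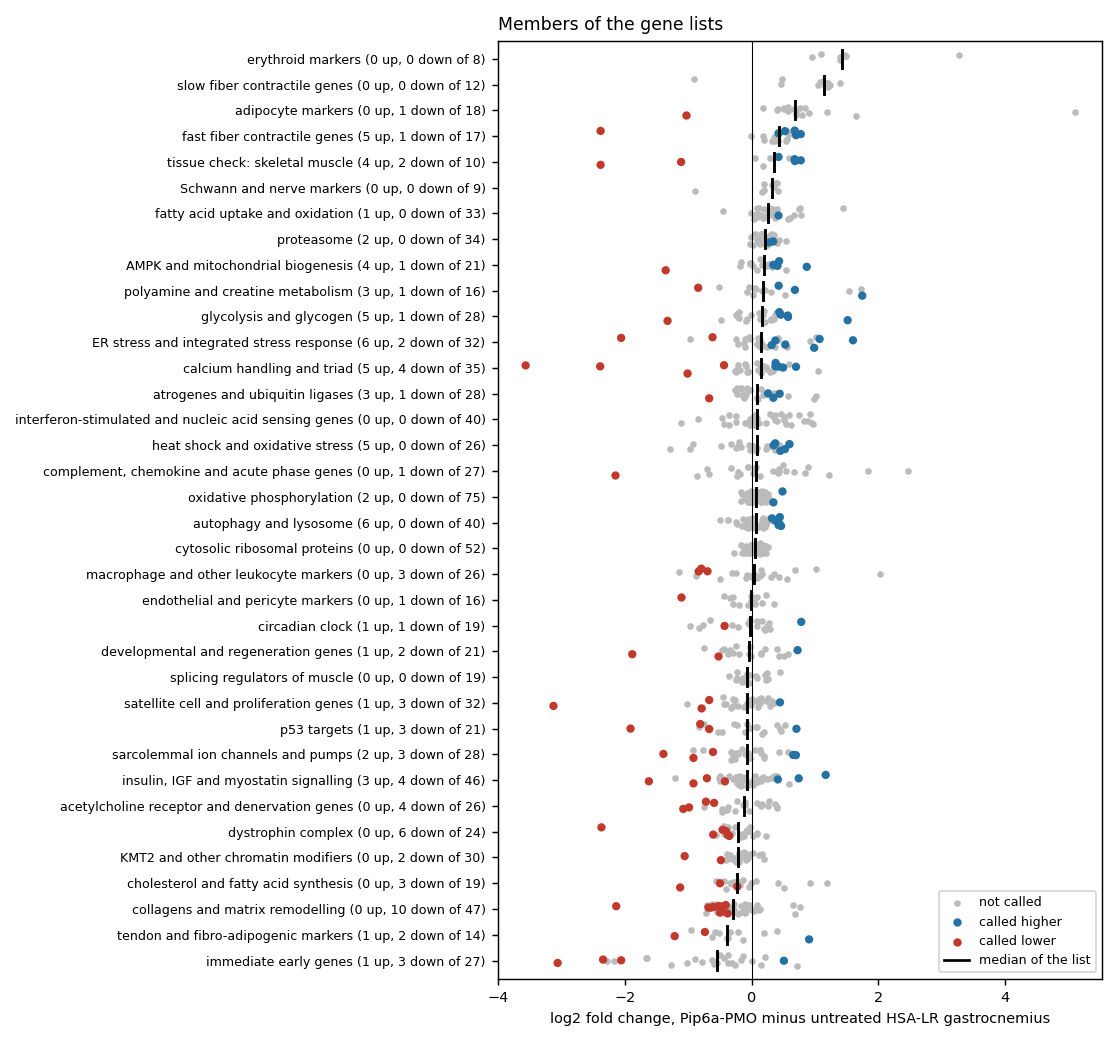
Log2 FC of treated minus untreated gastrocnemius for every tested member of 36 gene lists, with called members in blue (higher) or red (lower), other members in gray and a black bar at the median of each list, ordered by that median. The collagen and dystrophin complex lists hold called genes on the lower side alone, and the autophagy and heat shock lists on the higher side alone. The erythroid, slow fiber and adipocyte lists have the highest medians and no called increase.

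Exon bins were tested against the rest of their own gene, which asks whether an exon was used more or less and not whether the gene changed. Of 172719 bins, 533 were called (0.309%), 196 used more (0.113%) and 337 used less (0.195%), in 334 of 11585 genes (2.88%). Of the 1357 called genes that had bins tested, 82 had a called bin. The exons of *Clcn1*, *Mbnl1* and *Atp2a1* that the study assayed by PCR were among the called bins. Exon 7a of *Clcn1* (chr6:42293444-42293522, plus strand, coding, 79 bases) and exon 5 of *Mbnl1* (chr3:60614683-60614736, plus strand, coding, 54 bases) are printed below because their skipping is the usual read-out of freed MBNL1. They are followed by short exons of *Tnnt3* (chr7:142507770-142507788, plus strand) and *Ryr1* (chr7:29056234-29056248, minus strand), which show short exon pieces used less and used more. All were read from GENCODE M21 transcripts (GRCm38).
*Clcn1* exon 7a: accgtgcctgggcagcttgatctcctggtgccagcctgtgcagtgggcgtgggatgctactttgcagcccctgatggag
*Mbnl1* exon 5: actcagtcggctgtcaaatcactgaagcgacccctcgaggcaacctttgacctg
*Tnnt3* bin 19: cgggaggaggacgaggaag
*Ryr1* bin 45: gcaggagacgtacag

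Exon 7a of *Clcn1* held 1.18%, 1.35% and 1.04% of the counts of its gene in untreated mice and 0.165%, 0.145% and 0.150% in treated mice (relative log2 change -2.96, adjusted P = 9.15e-28). Its counts were 331, 339 and 217 in untreated and 64, 63 and 40 in treated mice. Exon 5 of *Mbnl1* held 0.582%, 0.857% and 0.813% and 0.135%, 0.194% and 0.0969% (relative log2 change -2.35, adjusted P = 1.04e-08). In both the groups did not overlap, a separation that was not counted over all bins. The *Mbnl1* gene as a whole was not called (log2 FC 0.06, adjusted P = 0.819). Exon 22 of *Atp2a1*, the SERCA1 calcium pump (chr7:126446545-126446586, minus strand, partly coding), held 0.967%, 0.729% and 0.861% and 3.85%, 3.81% and 4.84% (relative log2 change 2.31, adjusted P = 1.03e-18). WT mice had 3.93%, 3.91% and 3.86%.

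Among the named bins used less, a 19-base exon piece of *Tnnt3*, the fast troponin T, held 2.58%, 2.70% and 2.62% in untreated mice, 0.0672%, 0.0407% and 0.0204% in treated mice and 0.0222%, 0.0247% and 0.0286% in WT mice (relative log2 change -6.10, adjusted P = 1.66e-23). Bin 7 of *Ldb3*, a Z-disc protein gene, held 1.53%, 1.71% and 1.46% in untreated and 0.234%, 0.166% and 0.104% in treated mice (relative log2 change -3.22, adjusted P = 8.92e-26). Bin 7 of *Bin1*, whose protein shapes T-tubules, held 0.456%, 0.627% and 0.470% and 0.0931%, 0.0655% and 0.0695% (relative log2 change -2.81, adjusted P = 1.35e-23). These bins of *Ldb3* and *Bin1* were not placed on the annotation, and neither gene was called as a gene (adjusted P = 0.173 and 0.821). In the kinase gene *Camk2b*, a bin of 3 bases (chr11:5982759-5982761, minus strand) held 1.71%, 1.78% and 2.01% and 0.454%, 0.258% and 0.254% (relative log2 change -2.48, adjusted P = 1.11e-28), while a coding bin of 129 bases (chr11:5977812-5977940) went the other way, from 0.547%, 0.384% and 0.446% to 1.68%, 1.61% and 1.39% (relative log2 change 1.76, adjusted P = 1.41e-15). Neighboring bins can share read pairs.

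Among the named bins used more, a coding exon of *Phka1*, a subunit of phosphorylase kinase (chrX:102557096-102557272, minus strand), held 0.203%, 0.206% and 0.261% in untreated and 1.15%, 1.58% and 1.38% in treated mice, with WT mice at 2.06%, 1.97% and 1.73% (relative log2 change 2.63, adjusted P = 2.6e-23). The 15-base exon of *Ryr1*, the calcium release channel, held 0.138%, 0.119% and 0.105% and 0.567%, 0.756% and 0.654% (relative log2 change 2.46, adjusted P = 1.9e-11). A bin of *Asph*, the gene of junctin and junctate (chr4:9630547-9630925), held 0.253%, 0.225% and 0.208% and 0.890%, 1.06% and 0.879% (relative log2 change 2.02, adjusted P = 6.71e-17). The bin of *Ttn* (chr2:76964613-76965090) was a small part of the titin counts, at 0.00309%, 0.00250% and 0.00280% and 0.0161%, 0.0176% and 0.0267% (relative log2 change 2.82, adjusted P = 4.87e-19). In *Phka1*, *Ryr1*, *Asph*, *Ttn* and the bin of *Emc10* (relative log2 change 2.03, adjusted P = 1.87e-10), the mean share of treated mice stayed below that of WT mice. For *Ryr1* the treated libraries overlapped the 0.853%, 0.732% and 0.695% of WT mice.

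*Stam*, which sorts ubiquitinated receptors in endosomes, differed from these. Its bin 29 (chr2:14141878-14144365, plus strand, partly coding) held 1.53%, 1.29% and 1.31% in untreated, 1.73%, 1.98% and 2.11% in WT and 8.04%, 9.35% and 9.65% in treated mice (relative log2 change 2.69, adjusted P = 6.56e-20). All 3 treated libraries lay above the 6 others, as for *Txlnb* and *Tmem236*. Counts of the bin were 34, 27 and 26 in untreated and 155, 195 and 110 in treated mice, while *Stam* as a gene was not called (log2 FC -0.20 ± 0.12 (SE), adjusted P = 0.367). The remaining leading bins used less were in *Kbtbd12* (relative log2 change -4.02, adjusted P = 4.47e-22), *4833439L19Rik* (relative log2 change -1.89, adjusted P = 7.06e-18) and *Ergic1* (relative log2 change -2.32, adjusted P = 9.96e-18). All 17 named bins were called with the same direction in each alternative that gave a value, and the bin of *Kbtbd12* gave none under the filter of at least 10 counts in every library.

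**Figure D3:**
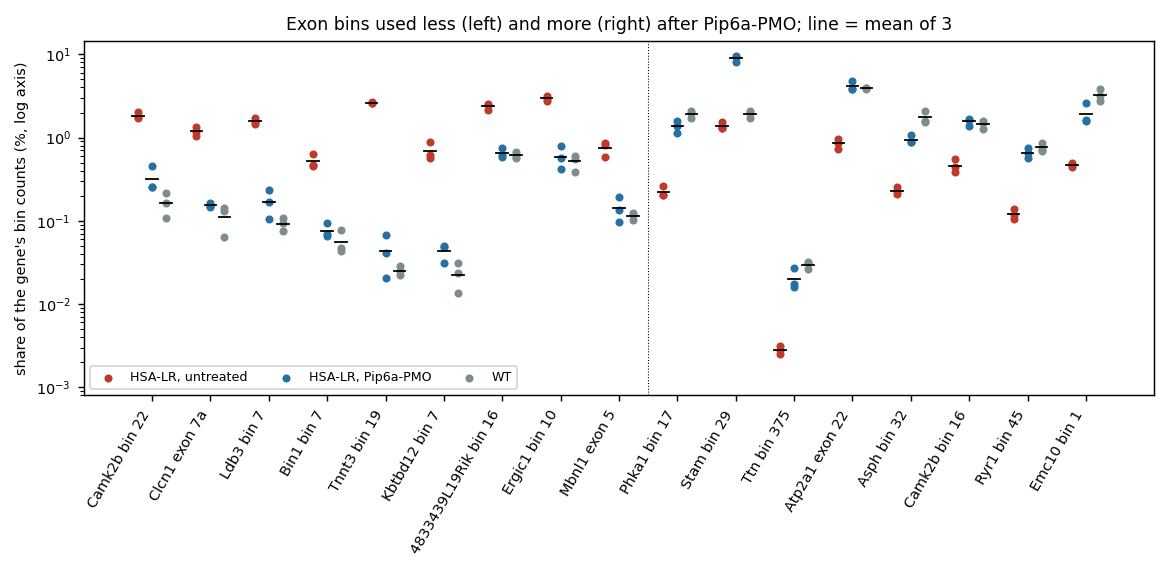
Share of the counts of a gene in each of 17 named exon bins (percent, log axis) for the 9 gastrocnemius libraries, with bins used less on the left, bins used more on the right and a line at the mean of 3 mice. Treated points lie apart from untreated points in every bin, which the choice of most bins by P and relative change on the same libraries favors. The bin of *Stam* is the one where treated points lie far above those of both other groups.

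Quadriceps libraries, with the same mouse numbers and not used in the rule for the named genes, gave the same contrast in a different muscle. There, 2143 of 15574 genes were called between treated and untreated mice (13.8%). Each of the 24 leading genes had the same sign in the quadriceps and was called there. *Txlnb* had a log2 FC of 2.64 (adjusted P = 2.2e-05) in the quadriceps, *Tmem236* 3.64 (adjusted P = 0.00345), *Camk1d* -2.05 (adjusted P = 0.00619), *Cxadr* -3.68 (adjusted P = 0.00525) and *Cdnf* 2.15 (adjusted P = 4.97e-05). Of the 385 genes changed 2-fold in the gastrocnemius and tested in the quadriceps, 366 had the same sign there and 246 were called in the same direction. The share with the same sign over all genes tested was not counted. The labels do not tie the muscles to mice, but the study describes the quadriceps as taken from the treated mice themselves, so this is not a further set of animals.

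Of 1550 genes called in the gastrocnemius and tested in the quadriceps, 820 were called there in the same direction. The others were not called there, apart from 1 called in the opposite direction. *Myh1* had a log2 FC of -2.38 in the gastrocnemius and -0.61 (adjusted P = 0.284) in the quadriceps, *Kcnq5* -0.61 and 0.17 (adjusted P = 0.696), *Mymk*, the myoblast fusion gene, -1.88 and 0.27 (adjusted P = 0.712), and *Thbs4* -1.22 and -0.26 (adjusted P = 0.642). *Mymk* was low in the gastrocnemius, at 0.327, 0.326 and 0.627 CPM in untreated and 0.136, 0.104 and 0.102 CPM in treated mice. Its call there was lost without untreated mouse 1 or 2 or treated mouse 2. None of these differences between the muscles passed the test of the interaction, in which edgeR called 0 of 16167 genes, with 1271 at an unadjusted P under 0.05. With the mouse number as a block it also called 0, with 2257 at an unadjusted P under 0.05. The smallest adjusted P of the interaction among the named genes was 0.63.

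**Figure D4:**
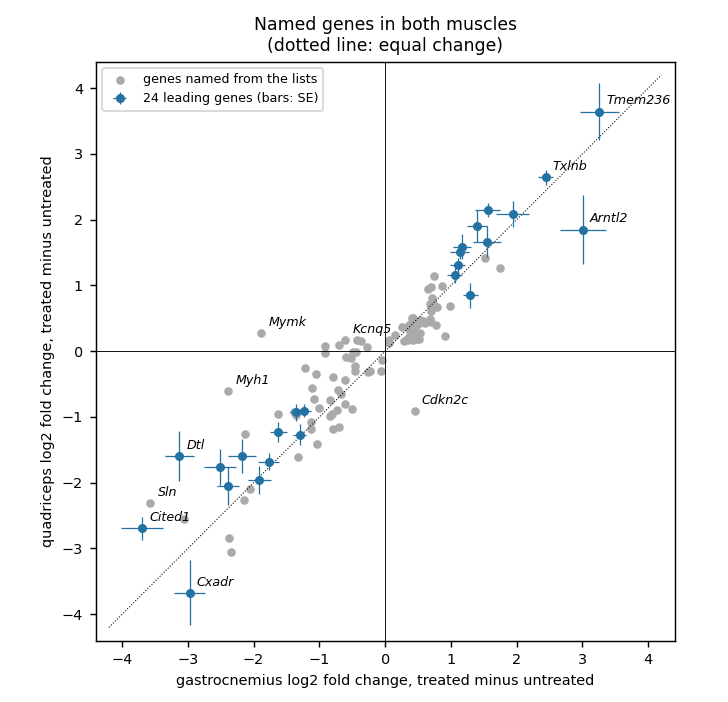
Log2 FC of treated minus untreated mice in the gastrocnemius (horizontal) and the quadriceps (vertical) for the named genes, with SE bars for the 24 leading genes and a dotted line at equal change. The 24 leading genes lie in the lower left and upper right corners, and *Mymk*, *Kcnq5* and *Cdkn2c* are among the list genes with opposite signs in the 2 muscles.

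Of the other genes the study names in human or mouse form, *Acta1* measured 37197, 37614 and 38763 CPM in untreated and 35986, 39918 and 42580.0 CPM in treated mice (log2 FC 0.06, adjusted P = 0.805). This is the mouse gene, and the transcript of the human actin transgene was not analysed. *Dmpk*, the mouse gene of the DM1 kinase, measured 771, 711 and 690.2 CPM and 661, 627 and 527 CPM (log2 FC -0.26, adjusted P = 0.357). *Atp2a1* was called at an adjusted P of 0.0958 (log2 FC 0.42), a call lost without treated mouse 2 or 3. The fits of *Sos1* and *Rplp0* gave log2 FC of -0.27 and -0.05 (adjusted P = 0.233 and 0.83).

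The number of calls depended most on the untreated mice. Without untreated mouse 1, 2 or 3 there were 428, 492 and 795 called genes, and without treated mouse 1, 2 or 3 there were 1368, 884 and 1463. Without treated mouse 3, 1089 of the 1566 called genes were called again, all in the same direction. Of the 401 genes changed 2-fold, 303 were called again. The bins nearer the 3' end without treated mouse 3 called 1324 genes, 962 of them among the 1566.

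Of the 24 leading genes, 23 were called under every alternative that gave a value, and *Cebpd* was not called with the bins nearer the 3' end. The other genes from lists called in this way included *Camk2d*, *Sln*, *Jph2*, *Myh1*, *Kcnq5*, *Chrnb1*, *Adamts20*, *Thbs4*, *Sntb1*, *Itgb1*, *Fbp2*, *Prkab2*, *Ppargc1b*, *Azin1*, *Tbc1d1*, *Gstm1*, *Cebpb*, *Atf3*, *Phlda3* and *Tet2*. Of the 112 called genes named by the rule, 45 kept their call throughout, and the other 67 lost it in at least 1 alternative.

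Lists lost calls with untreated mice left out, too. Without untreated mouse 1, 2 or 3, the collagen and matrix list had 2, 3 and 6 genes called lower and the dystrophin complex 3, 4 and 3. For genes called higher, those fits gave 0, 2 and 3 in autophagy, 2, 1 and 1 in heat shock and oxidative stress, 0, 2 and 0 in glycolysis, 2, 1 and 2 in the AMPK list, 1, 1 and 3 in the ER stress list and 0 each among fast fiber genes (edgeR). Immediate early genes went the other way without untreated mouse 3, where 9 were called lower. With treated mouse 2 left out, 3 genes were called higher in the ER stress list, 3 in heat shock and oxidative stress, 1 in calcium handling and 1 in polyamine and creatine metabolism.

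**Figure D5:**
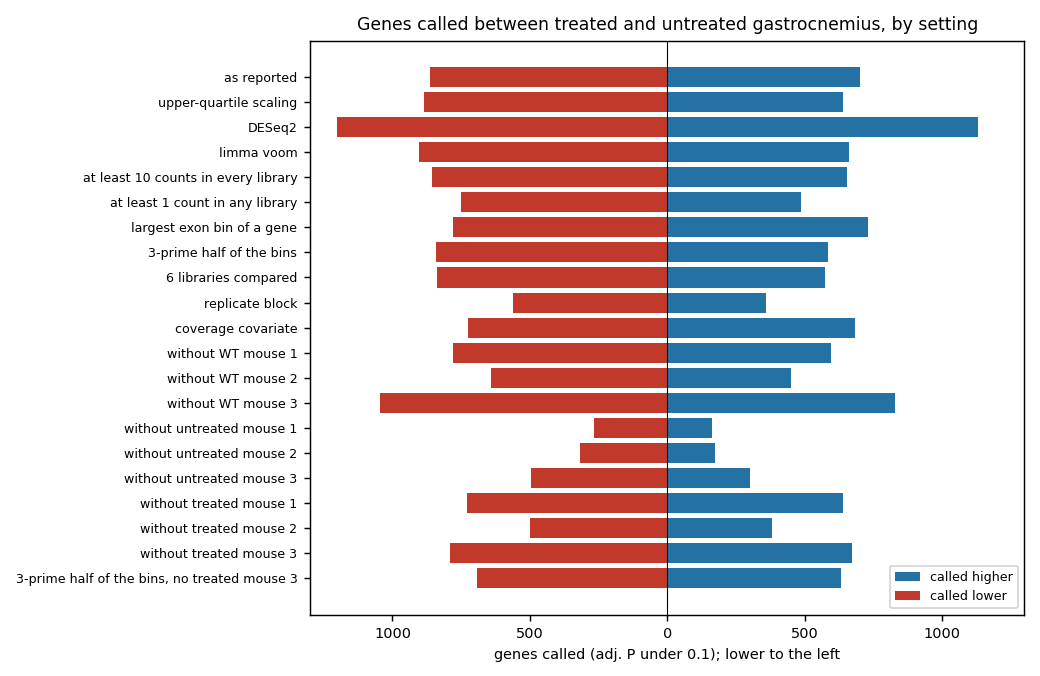
Genes called higher (right, blue) and lower (left, red) between treated and untreated gastrocnemius under each setting, with the reported fit at the top. The bars are shortest where an untreated mouse is left out, and leaving out treated mouse 3 or using the bins nearer the 3' end changes them less.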

How the data were processed

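RNA of 9 gastrocnemius and 9 quadriceps muscles was sequenced from polyA-selected, stranded libraries. The authors deposited unnormalized counts for each exon bin (whole numbers of read pairs), 1 file a library, with no pooled replicates. Submitters' processing notes name CASAVA, HISAT, featureCounts 1.5.0 and GRCm38, without their roles. Entries that name no bin (3.10% to 3.66% of the 6 libraries compared) were left out. Bins were summed per gene identifier, which weights genes with short bins, and placed on GENCODE M21 (GRCm38).

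Genes were kept by filterByExpr (minimum count 10, minimum total 15), scaled by TMM and tested with edgeR 4.0.16 (glmQLFit, glmQLFTest), the 9 gastrocnemius libraries in 1 fit, with Benjamini-Hochberg adjustment over all genes tested. Adjusted P values in the text are from edgeR. Bins were tested with diffSpliceDGE in genes with at least 2 bins. Other tools were limma 3.58.1, DESeq2 1.42.0, R 4.3.3 and Python 3.11.15. The tests were checked on simulated counts, where the bin test made more false calls than its threshold allows. Alternatives covered scaling, test, filters, gene counts, the replicate number as a block, the coverage ratio as a covariate and each mouse left out. The bins nearer the 3' end without treated mouse 3, and lists without treated mouse 1 or 2, were added after seeing the data.

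Named genes were the 12 lower and 12 higher with the smallest P among 2-fold, non-overlapping genes with a usual symbol (3 predicted genes were passed over), up to 3 called genes a list and direction of 37 lists, the genes the study names, and 8 bins in each direction plus 3 assayed exons. *Kcna6*, *Abr*, *Itgav*, *Aasdh*, *Armcx6*, *Myh7*, *Ucp1*, *Cidea*, *Stam* as a gene and its neighbors were chosen after their values were seen. Some genes that the rule names are not reported here. The members and lists were chosen with earlier results of these data known. With 3 mice a group, P values set a change against the spread within the groups of the fit, WT mice included, estimated in part across genes. They rest on these mice alone.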

Additional observations from a re-analysis of the deposited data

How the results depend on the processing

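Against 1566 called genes in the reported fit, upper-quartile scaling, limma voom, either other filter, the largest bin, the bins nearer the 3' end, the 6 libraries alone and the coverage covariate gave 1238 to 1566 calls, and DESeq2 gave 2334. None of the 1566 was called in the opposite direction under any alternative. Leaving out 1 mouse gave 428 to 1877 called genes, 195 to 465 genes changed 2-fold (reported: 401) and 270 to 716 called bins (reported: 533). For bins, limma voom with diffSplice called 1051 (608 used more and 443 less), and the coverage covariate gave 271 used more and 255 used less in place of 196 and 337.

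With the replicate number as a block, 921 genes, 310 at 2-fold and 446 bins were called. The labels number the mice of each group 1 to 3. Deviations from the group mean of same-numbered treated and untreated mice had r across genes of 0.19, -0.08 and -0.20 for pairs 1, 2 and 3. Such deviations balance out within a group, so this check cannot tell whether same-numbered mice shared a batch. Treated mouse 1 correlated best with untreated mouse 1, and treated mice 2 and 3 did not correlate best with their own number.

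Of 112 called named genes, 45 kept their call in every alternative that gave a value and none changed sign. Signs turned in 6 genes that were not called. With the largest bin the log2 FC was -0.23 for *Ldb3*, 0.047 for *Sos1* and -0.048 for *Acta1*. With 1 mouse left out the log2 fold change of Acta1 ranged from -0.0057 to 0.12, and it ranged from -0.087 to 0.13 for *Mbnl1*, from -0.25 to 0.056 for *Bin1* and from -0.17 to 0.010 for *Rplp0*. The interaction called 0 genes with edgeR under each alternative run (836 to 2257 at an unadjusted P under 0.05). Depth limits exon bins more than genes, since leading bins such as that of *Emc10* held 21 to 138 counts in the 6 libraries.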

Other observations

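*Stam* and *Tmem236* are neighbors on chromosome 2 (GRCm38) on the plus strand, with 24.9 kb between the end of *Stam* and the start of *Tmem236*. *Gm37499*, annotated between them on the same strand 0.186 kb past *Stam*, measured 0.243, 0.159 and 0.268 CPM in untreated and 0.181, 0.224 and 0.153 CPM in treated mice (log2 FC -0.25, adjusted P = 0.695, edgeR). *Mrc1*, the next protein-coding gene past *Tmem236* on that strand, was called lower (log2 FC -0.70, adjusted P = 0.0344). In the quadriceps, *Tmem236* had a log2 FC of 3.64 (adjusted P = 0.00345), *Gm37499* one of -0.03 (adjusted P = 0.969) and *Mrc1* one of -1.16 (adjusted P = 0.015). Whether reads of *Stam* and *Tmem236* come from joined transcripts was not tested.

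Brown fat genes stood high in treated mouse 3. *Ucp1*, the uncoupling protein of brown fat, measured 0.129, 0.0985 and 0.0585 CPM in untreated mice and 0.151, 0.0959 and 9.84 CPM in treated mice (log2 FC 5.11, adjusted P = 0.103, edgeR). The lipid droplet gene *Cidea* measured 0.494, 0.477 and 0.543 CPM and 1.59, 1.05 and 4.94 CPM. *Cidea* was the single gene called in opposite directions in the 2 muscles, with a log2 FC of 2.32 (adjusted P = 0.0445) in the gastrocnemius and -5.15 (adjusted P = 0.0899) in the quadriceps, and its interaction had an adjusted P of 0.63. In treated mice 1 and 2, *Ucp1* lay within or just above the untreated range and *Cidea* lay above it.

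The sum of the cytosolic ribosomal proteins was 10889, 11154 and 11358 CPM in untreated and 10261, 9948 and 14252 CPM in treated mice. Its median log2 FC of 0.06 became -0.13 without treated mouse 3, where 6 members were called lower.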
